A study of Danio rerio with 6 samples.

Results

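Of the 13927 transcripts in a deposited table of whole zebrafish, 119 differed strongly between the 2 adult males that were sequenced, although their female and male means were within 4-fold. The series holds 6 fish, of which 2 were adult males, 2 adult females and 2 juveniles. The 119 transcripts were chosen by 3 limits. The mean over the 6 fish was at least 100 normalised counts, the values of male 1 and male 2 were more than 4-fold apart after 1 was added to each, and the mean of the females was between 0.25 and 4 times the mean of the males. A normalised count is the number of reads of a transcript divided by a size factor for the fish, so that fish of different sequencing depth can be compared. The adult males, the adult females and the juveniles, which were 28 days old (28 dpf), were untreated and had been euthanised with Tricaine by the breeder before sampling. No strain or genetic alteration was given for any group, and the labels give no sex for the juveniles, which the study took to be males from their expression. Each library is 1 fish, so the difference between the males holds both the difference between animals and the technical error of 2 libraries.

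RNA from a whole body is a mixture from all organs, in which large organs give most of the reads. Adult fish of the same sex can differ in the state of the gonad, in feeding, in infection and in the gene copies and alleles they carry, and laboratory zebrafish are kept as outbred stocks. A group of 2 fish gives the mean of 2 such animals. In these bulk samples fewer cells of a type and less RNA per cell cannot be told apart. The transcripts carry identifiers of the assembly (MSTRG, a locus number and a transcript number) and the table pairs no gene names with them, so no function could be given to any of the 119 and the whole-body label could not be checked against marker genes. Adults were compared with each other by sex and with the juveniles in the study, to find transcripts that show sex early in life. How far 2 males can differ is the spread against which such a comparison is made.

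The reads recovered from the table numbered between 13980849 and 18635087 for each fish, which is part of each library because the table is a selection of transcripts. Of its rows, 9528 had a mean of at least 100 normalised counts, and these serve below as the background. Their median log2 ratio of male 1 to male 2 was -0.00015, a value that the size factors set. Between 3 reads, taken as the floor, and 0 reads no difference was read, and the floor was 2.67 normalised counts in male 1 and 2.40 in male 2.

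Male 1 was the higher male in 76 of the 119 transcripts (63.9%) and male 2 in 43 (36.1%). Of the 9528 background transcripts, 271 had males more than 4-fold apart, which is 2.84%. From these the limit on the sexes removed 152, of which 118 had a female mean over 4 times the male mean and 34 a female mean under 0.25 times it. Among all 271, male 1 was higher in 182 (67.2%), while over the 9528 it was higher in 49.9%. These values chose the transcripts and are given as a description, with no test.

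**Figure D1:**
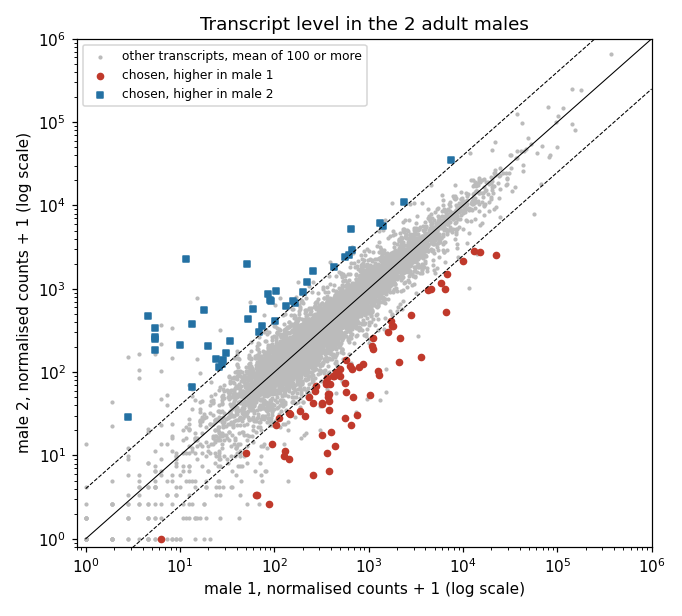
Normalised counts plus 1 in male 1 (horizontal, log scale) and male 2 (vertical, log scale) for the 9528 transcripts whose mean was 100 or more. Grey points are other transcripts, red circles the 76 chosen transcripts higher in male 1 and blue squares the 43 higher in male 2, the solid line marks equal values and the dashed lines a 4-fold difference. Grey points beyond the dashed lines were left out by the limit on the sexes.

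The median ratio of the higher to the lower male was 6.34 with 1 added, and the lower and upper quartiles were 4.64 and 12.3. In 45 the males were more than 8-fold apart, in 24 more than 16-fold and in 12 more than 32-fold. Those beyond 32-fold were 5 with male 1 higher and 7 with male 2 higher. Counting error alone left the lower bound of the ratio above 4 in 84 and above 2 in 118 of the 119 (exact 95% intervals, which cover counting error only). The exception, MSTRG.12869.3, had 6 reads in male 1 and 0 in male 2. The same counts chose the transcripts, and the intervals make no allowance for that choice. The bounds are therefore a description and may be too high.

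Just inside the limit on the males were MSTRG.37124.1, with a ratio of 4.01, and MSTRG.30212.1, with 4.02. Just outside were MSTRG.17364.1 (3.99) and MSTRG.29319.1 (3.96). At the limit on abundance, MSTRG.6375.1 and MSTRG.13505.1 were inside with means of 101.6 and 102.2, and MSTRG.37108.1 and MSTRG.32678.1 were outside with 99.7 and 97.4. At the upper limit on the sexes the female to male ratio was 3.94 and 3.89 for MSTRG.32163.1 and MSTRG.17990.1 inside, and 4.24 and 4.33 for MSTRG.35343.1 and MSTRG.29880.1 outside. At the lower limit it was 0.266 and 0.278 for MSTRG.37261.1 and MSTRG.14603.1 inside, and 0.246 and 0.245 for MSTRG.14463.1 and MSTRG.28464.1 outside.

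Most of the 119 were expressed at low to moderate levels. Their median mean was 301 normalised counts against 568 over the background, and 92 of them (77.3%) had a mean under 1000 against 65.4% of the background. They formed 1.94% of the transcripts whose mean lay from 100 to under 300, 1.03% of those from 300 to under 1000, 0.783% of those from 1000 to under 3000 and 0.902% of the rest. A mean of 1000 was reached by 27, and the most abundant, MSTRG.37261.1, ranked number 109 in the table. Summed, the 119 took 1.25% of the normalised counts of male 1 and 0.904% of male 2. In the females they took 0.445% and 0.458%, and in the juveniles 1.06% and 1.28%.

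Among the most abundant transcripts higher in male 1, MSTRG.16490.1 had the widest gap between the males. It had 22380.3 normalised counts in male 1 and 2574 in male 2, with 9965 and 16932 in females 1 and 2 and 2207 and 1955 in juveniles 2 and 3. Male 1 was 8.70 times male 2, both females lay between the males, and male 2 was close to the juveniles. MSTRG.5395.1 had 15157 in male 1, 2794 in male 2, 5402 and 2283 in females 1 and 2, and 33255 and 29455 in juveniles 2 and 3. Here the juveniles were above every adult, and male 1 was the adult nearest to them. MSTRG.30376.1 had 5821 in male 1 and 1159 in male 2, while the females had 1502 and 1849 and the juveniles 10932 and 8460.4. Male 2 and both females were together at a low level, and male 1 stood between them and the juveniles.

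MSTRG.30866.1 was lowest in the juveniles. Its values were 13139 in male 1, 2872 in male 2, 2482 and 6391 in females 1 and 2, and 223 and 91.6 in juveniles 2 and 3, so that all adults were above both juveniles. MSTRG.12065.1 had 4591 normalised counts in male 1 and 981 in male 2, 5639 and 6069 in females 1 and 2, and 196 and 502 in juveniles 2 and 3. In this transcript male 1 was close to the females and male 2 was 4.68 times lower than male 1. MSTRG.23916.1 was lower in the adults than in the juveniles, with 1122 and 255 in males 1 and 2, 3680.1 and 497 in females 1 and 2, and 19189.8 and 68002 in the juveniles. It was the 1 transcript of these 6 in which the females were also more than 4-fold apart (7.38-fold with 1 added).

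The 6 most abundant transcripts higher in male 2 had a common order. Both juveniles were above male 1 and above both females in each of them, and on the log scale male 2 was the adult nearest to the mean of the juveniles. The ranking used the mean of all 6 fish, so high juvenile values helped transcripts onto this list. Among all 43 higher in male 2, the juveniles were above both males in 11 and below both in 22. MSTRG.37261.1 had 35405 normalised counts in male 2 and 7447 in male 1, 5946 and 5432 in females 1 and 2, and 21030.0 and 18106 in juveniles 2 and 3. Male 2 was thus 4.75 times male 1 (exact 95% counting interval 4.64 to 4.87), and it was the highest of the 6 fish. MSTRG.28850.2 had 11029.9 in male 2, 2343 in male 1, 2439 and 1381 in females 1 and 2, and 17179 and 15902 in juveniles 2 and 3. MSTRG.5169.1 had 5294 in male 2 against 653 in male 1, with 2433 and 1433 in females 1 and 2, and 10516 and 13685 in juveniles 2 and 3. Male 1 was the lowest of the 6 fish in this transcript, and male 2 was 8.11 times higher.

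MSTRG.30212.1 had 5665 normalised counts in male 2, 1409 in male 1, 2013 and 991 in females 1 and 2, and 4923 and 5021 in juveniles 2 and 3. MSTRG.13927.1 had 2559 in male 2 and 613 in male 1, 384 and 858 in females 1 and 2, and 6147 and 4938 in juveniles 2 and 3. MSTRG.15855.1 had 2930.3 in male 2, 672 in male 1, 1274 and 964 in females 1 and 2, and 4637 and 4826 in juveniles 2 and 3. In these 3 the juveniles differed from each other by at most 1.24-fold, less than the males did.

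**Figure D2:**
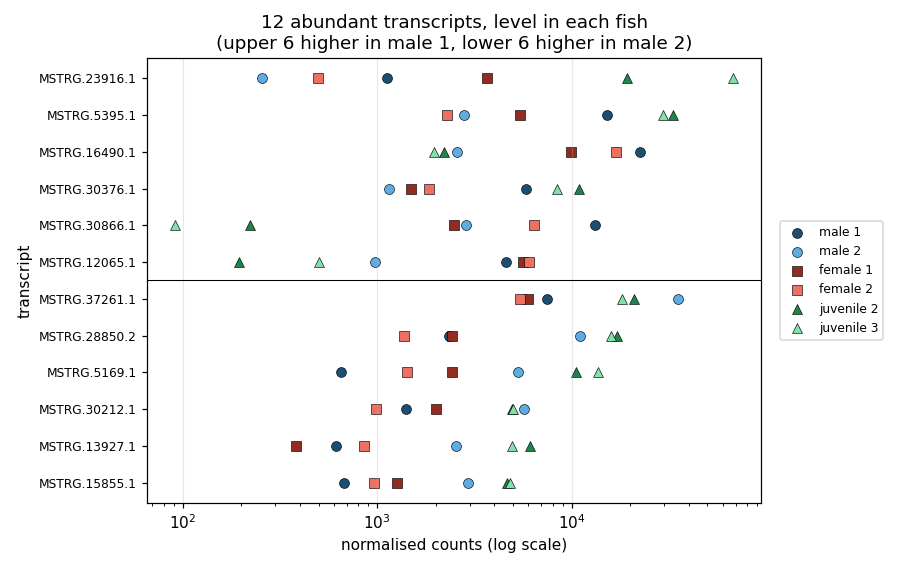
Normalised counts (horizontal, log scale) of the 6 most abundant transcripts higher in male 1 (upper rows) and the 6 higher in male 2 (lower rows), with 1 symbol for each fish. Circles are males, squares females and triangles juveniles, and the 2 circles of a row are always at least 4.02-fold apart.

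The largest ratio between the males belonged to MSTRG.18289.1. It had 10.7 normalised counts in male 1 (12 reads) and 2262 in male 2, a ratio of 212 (exact 95% counting interval 121 to 411). The females had 1685 and 1479.8 and the juveniles 3.17 and 3.70. Male 2 and the females were thus at a high level, and male 1 was with the juveniles at a low one. The same fish were high and low in MSTRG.32343.1. It had 4.45 in male 1, 334 in male 2, 205 and 375 in females 1 and 2, and 0 and 0.925 in juveniles 2 and 3. MSTRG.20805.1 had 3.56 in male 1 and 465 in male 2, 25.5 and 169 in females 1 and 2, and 2.12 and 0 in juveniles 2 and 3. Here female 1 was also low, so that male 2 and female 2 were the only fish above 100 normalised counts.

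On the side of male 1, MSTRG.34041.1 had 376 normalised counts in male 1 and 5.59 in male 2, a ratio of 67.3 (exact 95% counting interval 32.4 to 168). Female 1 had 324, female 2 28.2 and the juveniles 3.17 and 4.63. Male 1 and female 1 were therefore high, and the 4 other fish were low. MSTRG.23035.2 had 259 in male 1 and 4.79 in male 2, 401 and 233 in females 1 and 2, and 13.8 and 3.70 in juveniles 2 and 3. MSTRG.308.1 had 365 in male 1, 9.59 in male 2, 121 and 123 in females 1 and 2, and 0 and 7.40 in juveniles 2 and 3. In both of these the females were less than 2-fold apart and lay well above male 2. MSTRG.30343.1 had 436 in male 1 against 11.99 in male 2, 107 and 264 in females 1 and 2, and 2.12 and 0 in juveniles 2 and 3.

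In 15 of the 119 the lower male had under 1/10 of the level of each female, 7 with male 1 higher and 8 with male 2 higher. The reverse, a higher male over 10 times each female, was found in 0, because the limit on the sexes excludes it. No background share was taken, so these counts describe the 119 only. In 12 the lower male had fewer than 10 reads, and in 5 it had 3 reads or fewer. For MSTRG.12869.3, with 6 reads in male 1 and 0 in male 2, counting error alone allowed a ratio as low as 1.31, and no fold is given. It passed the limit on abundance through the juveniles, which had 5277 and 5354. MSTRG.23126.1 had 97 reads in male 1 and 2 in male 2, a ratio of 54.0 with a counting interval from 14.5 to 452.

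The 2 females were not compared with each other by the limits, which used only their mean. They were more than 4-fold apart in 21 of the 119 transcripts (17.6%) against 1.81% of the background. All of these transcripts were measured in the same 2 females, so the share describes these fish. More than 2-fold apart were 52 (43.7%) against 8.7% of the background. The median difference between the females was 1.77-fold, and over the background it was 1.20-fold. Under a mean of 1000 the share of transcripts with females over 4-fold apart was 19.6% of 92 against 2.49% of the background, and from 1000 on it was 11.1% of 27 against 0.516%. Those 27 include MSTRG.12869.3, which had 16 and 0 reads in females 1 and 2 and reached that mean through the juveniles. Some others of the 21 had an adult mean under 100 and passed the limit on abundance through the juveniles. In females 1 and 2 MSTRG.35302.1 had 0 and 18 reads, MSTRG.23126.1 had 1 and 27, MSTRG.10262.1 had 2 and 75 and MSTRG.30100.1 had 8 and 29. MSTRG.13505.1 was a further one, with 45.3 and 8.46 normalised counts in females 1 and 2. How many of the 21 passed in this way was not counted, and no share without them was taken. With 10 added to each value in place of 1, the limits chose 102 transcripts, of which 14.7% had females over 4-fold apart. The background share with 10 added was not taken. In 67 of the 119 the females were within 2-fold of each other while the males were over 4-fold apart.

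**Figure D3:**
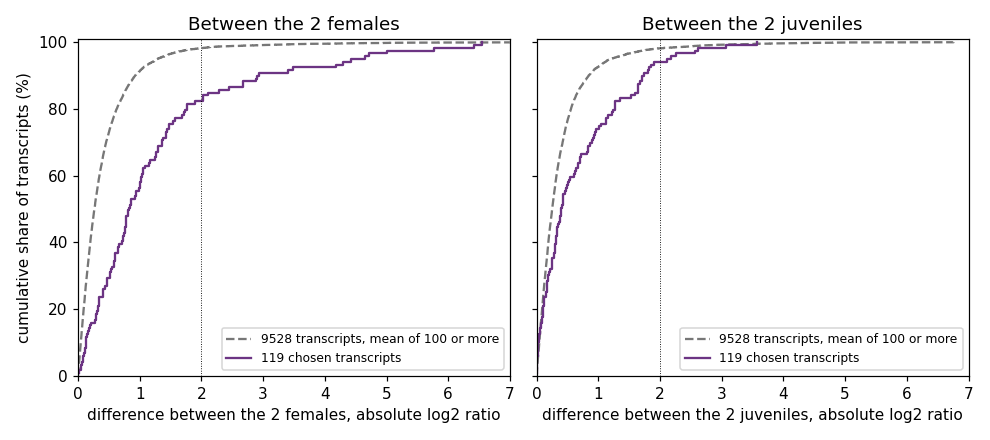
Cumulative share of transcripts (vertical, %) by the difference between the 2 females (left) and the 2 juveniles (right), as an absolute log2 ratio with 1 added (horizontal). The solid line is the 119 chosen transcripts, the dashed line the 9528 background transcripts, and the dotted vertical line a 4-fold difference. The solid line lies to the right of the dashed one, more so for females, of which 21 lie beyond 4-fold against 7 for juveniles.

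Each combination of fish occurred among the 21 transcripts in which both pairs of adults were more than 4-fold apart. Male 2 and female 2 were the higher fish in 7, male 1 and female 2 in 6, male 1 and female 1 in 5, and male 2 and female 1 in 3. MSTRG.38012.1 had the largest ratio between the females, with 4.64 normalised counts in female 1 and 528 in female 2, and 32.9 and 233 in males 1 and 2. The juveniles had 5.29 and 0.925. MSTRG.38013.1, which has the next locus number, had 16.3 and 936 in the females, 58.7 and 567 in the males and 4.23 and 2.78 in the juveniles. In both transcripts female 2 was highest, male 2 came next, then male 1, and female 1 was the lowest adult. MSTRG.17185.1 had 9.29 in female 1, 881 in female 2, 4.45 in male 1, 265 in male 2 and 3.17 and 0.925 in the juveniles, so that male 2 and female 2 were high and the other 4 fish were under 10 normalised counts.

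The opposite pairing was seen in MSTRG.23375.1, where male 1 and female 1 had 322 and 294 normalised counts and male 2 and female 2 had 16.8 and 12.7. The juveniles had 4.23 and 3.70. In MSTRG.31690.1 male 1 (3615) and female 2 (2518) were high, male 2 (153) and female 1 (394) were lower, and the juveniles had 43.4 and 8.33. In MSTRG.22290.1 male 2 (627) and female 1 (1234) were above male 1 (132) and female 2 (47.9). These 3 transcripts were chosen after their values were seen. Over the 119 the log2 ratio of the males had a Pearson r of 0.09 and a Spearman rho of -0.08 with that of the females, across transcripts that share the same 4 libraries, so a transcript high in male 1 was not regularly high in either female.

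**Figure D4:**
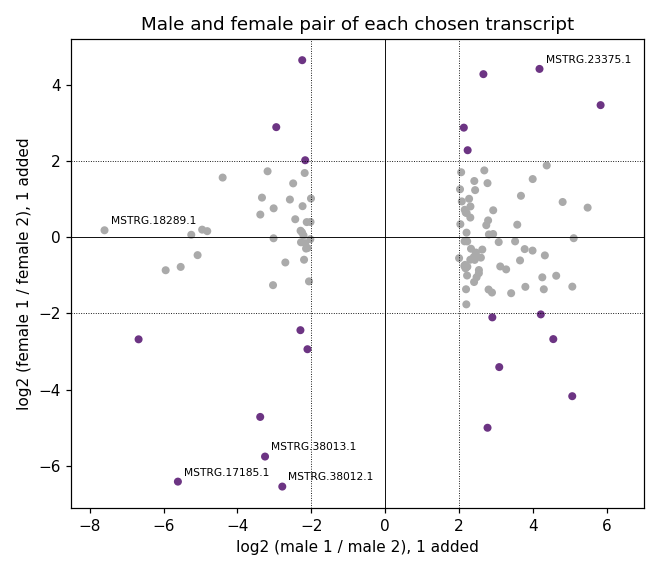
Log2 ratio of male 1 to male 2 (horizontal) and of female 1 to female 2 (vertical) for the 119 transcripts, with 1 added to each value. Purple points are the 21 with females more than 4-fold apart, dotted lines mark 4-fold, and the empty band in the middle is set by the limit on the males. Purple points lie in all 4 corners.

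When the same limits were turned round, with females more than 4-fold apart in place of males, 89 transcripts were found. The 21 above were shared, which is 17.6% of the 119 and 23.6% of the 89. Over the background, males were more than 4-fold apart in 2.84%. Female 1 was the higher female in 56 of the 89 (62.9%). The background share with female 1 higher was not taken, so this count is a description only.

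The 2 juveniles differed by more than 4-fold in 7 of the 119 transcripts (5.88%) against 1.83% of the background. In 31 (26.1%) they were more than 2-fold apart, against 7.37% of the background, and their median difference was 1.32-fold against 1.19-fold. All 7 transcripts with juveniles over 4-fold apart were among the 76 higher in male 1, and 0 of the 43 higher in male 2 were. MSTRG.32163.1 had the largest ratio, with 55.0 in juvenile 2 against 3.70 in juvenile 3, and males 1 and 2 had 129.9 and 10.4 and females 1 and 2 266 and 286. MSTRG.11911.1 had 22.2 and 2.78 in the juveniles, 655 in male 1, 22.4 in male 2 and 535 and 280.5 in females 1 and 2. In both, as in MSTRG.308.1 above, at least 1 juvenile was under 10 normalised counts. With 10 added to each value in place of 1, the limits chose 102 transcripts, of which 0.98% had juveniles over 4-fold apart.

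In 52 of the 119 transcripts (43.7%) the females and the juveniles were both within 2-fold of each other, as they were in 85.6% of the background. The 3 most even of them were MSTRG.743.1, MSTRG.6684.3 and MSTRG.1293.1. MSTRG.743.1 had 1055 and 1018 normalised counts in females 1 and 2, and 274 and 263 in juveniles 2 and 3, while the males had 155 and 719. Male 1 was the lowest of the 6 fish here and male 2 lay between the juveniles and the females. MSTRG.6684.3 had 376 and 357 in the females, 23.3 and 24.1 in the juveniles and 208 and 28.8 in males 1 and 2, so that male 2 was close to the juveniles. MSTRG.1293.1 had 222 and 225 in the females, 51.9 and 49.0 in the juveniles and 89.8 and 736 in the males. In this transcript the females lay between the males, and male 2 was the highest fish.

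The 119 were chosen for males far apart and a female mean within 4-fold of the male mean. Among them the order of males and females often depended on the male. In 52 of the 119 (43.7%) 1 male was above both females and the other below both, against 3.06% of the background, and male 1 was the upper male in 38 of these. The limits on the males and on the sexes favour this order, so nothing is read from the difference. Both females were above both males in 14 transcripts and below both in 3, and in the other 50 at least 1 female was outside the range of the males or on a different side from the other. On the log2 scale the mean of the females was nearer to the higher male in 75 and to the lower male in 44. The limit on the sexes tied the female mean to the male mean, in which the higher male weighs most. Nothing is read from this count either. Male 1 was above both females in 60 transcripts and below both in 37, while male 2 was above both in 26 and below both in 60. Over the 9528 background transcripts male 1 was above both in 3718 and below both in 5222, and male 2 in 3667 and 5274. The values of the males chose the 119, so the contrast between the males is a description.

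In the comparison of the sexes with limma over 13748 transcripts, 2 of the 119 (MSTRG.14555.1 and MSTRG.17990.1) were called lower in males and 0 higher at an adjusted p under 0.05. Of all transcripts tested 60.6% were called, 20.1% higher and 40.5% lower in males. The limits used this comparison, so the count is a description. At an unadjusted p under 0.05 there were 5. Of the 119, edgeR called 3 against 58.1% of all transcripts. DESeq2 called 10 against 61.2%, 8 of the 10 higher in males. The size factors matter here, because factors estimated anew on this table raised the males over the females by 0.57 to 1.01 on the log2 scale. With the median of ratios on this table limma called 6 of the 119, all higher in males, against 66.9% of all transcripts. Statements on the order of males and females therefore rest on the deposited factors.

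The fits with 1 male left out are a description too, since the limits chose males on different sides of a similar mean. Without male 1, limma called 44 of the 119 (37.0%) against 50.3% of all transcripts, with 15 higher and 29 lower in the remaining male than in the females. Without male 2 it called 38 (31.9%) against 45.8%, with 21 higher and 17 lower. It called 0 without female 1 (48.4% of all transcripts), without female 2 (39.6%) or without either juvenile (54.1%), where the counts at an unadjusted p under 0.05 were 0 without a female and 2 without a juvenile. A group left with 1 fish is assumed there to vary like the others. The sign of the fitted difference between the sexes was opposite in the fits without male 1 and without male 2 for 89 of the 119 transcripts. The limits favour opposite signs, and no share over all transcripts was taken, so nothing is read from this count.

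The level in the juveniles was not used by the limits except through the mean of the 6 fish. Both juveniles were below all 4 adults in 61 of the 119 transcripts (51.3%) against 34% of the background, and above all adults in 38 (31.9%) against 29.3%. Of the 119, 15 had an adult mean under 100 and passed the limit on abundance through the juveniles. They had to be higher in juveniles, so nothing is read from the count above all adults. In 20 they overlapped with the adults. Such separation was common in the whole table. Both juveniles lay between the males in 8. On the log2 scale the mean of the juveniles was nearer to the lower male in 75 transcripts and to the higher male in 44. The juvenile mean exceeded the higher male more than 10-fold in 7 and was under 1/10 of the lower male in 15. Both juveniles had 3 reads or fewer in 11. Background shares were not taken for the position of the juveniles between or near the males, nor for these last counts. They describe the 119 only.

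Juveniles were compared with males in limma by the log2 of the normalised count plus 1, with all 6 fish in the model, and all 119 passed its filter of at least 10 normalised counts in 2 fish. At an adjusted p under 0.05, 50 of the 119 (42%) were called against 34.8% of all 13748 transcripts tested. They were 19 higher in juveniles, against 18.6% of all transcripts, and 31 lower, against 16.2%. Over the 119 the median log2 difference of juveniles against males was -2.09, and over all transcripts it was 0.11. The count rested on the pooled spread of 3 groups of 2, which for the 119 holds the male gap that chose them. It was 88 with DESeq2 (22 higher and 66 lower), which called 39.5% of all transcripts. With only juveniles and males in the model it was 16 (13.4%) against 28.1% of all transcripts. It was 11 (9.24%) against 16.7% without juvenile 2, 7 (5.88%) against 11.7% without juvenile 3, and 15 (12.6%) against 27.4% without female 1 and 27.3% without female 2. The share of the 119 was thus above that of all transcripts with all fish in the model and below it in these 5 limma fits. Without male 1 or without male 2 the share of the 119 was above that of all transcripts. The limits chose males far apart, and such a fit lacks that gap, so nothing is read from it. Of the 50, 7 were called in each of the 6 fits that left out 1 fish, and these are MSTRG.18866.1, MSTRG.23461.3, MSTRG.19332.2, MSTRG.19333.1, MSTRG.14938.1, MSTRG.19777.1 and MSTRG.12869.3. How many of all transcripts called held in the same 6 fits was not counted, so the 7 are a description only. In 15 of the 119 the mean over the 4 adults was under 100, so that they passed the limit on abundance through the juveniles and had to be higher there. Among the 19 called higher in juveniles were 10 of these, MSTRG.19777.1 and MSTRG.12869.3 included.

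The lowest adjusted p of the 119 belonged to MSTRG.18866.1, with 6824 normalised counts in male 1, 1506 in male 2, 2392 and 4203 in females 1 and 2, and 6.35 and 12.03 in juveniles 2 and 3. All adults were far above both juveniles, and the log2 difference of juveniles against males was -8.36 (standard error 0.72, adjusted p = 0.00136 from limma). MSTRG.23461.3 had 0 reads in both juveniles, 567 and 73.5 normalised counts in males 1 and 2 and 111 and 67.6 in females 1 and 2, and male 2 was at the level of female 2. MSTRG.14938.1 went the other way, with 3829 and 3081 normalised counts in the juveniles, 185 and 32.8 in males 1 and 2 and 225 and 297 in females 1 and 2. Its log2 difference of juveniles against males was 5.44 (standard error 0.74, adjusted p = 0.00420 from limma). MSTRG.19777.1 had 1575 and 1409 in the juveniles against 104 in male 1, 22.4 in male 2 and 53.4 and 88.8 in the females. These 4 transcripts were chosen after their values were seen.

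Among the abundant transcripts described above, MSTRG.30866.1 was lower in juveniles than in males, and limma gave a log2 value of -5.41 for that comparison, with a standard error of 0.83 and an adjusted p of 0.00599. Without juvenile 3 its adjusted p was 0.0586. MSTRG.23916.1 was higher in juveniles, by 6.07 (standard error 1.15, adjusted p = 0.0114 from limma). Without male 2 its adjusted p was 0.0519 and without juvenile 3 it was 0.0931. MSTRG.12065.1 was lower in juveniles, at -2.76 on the log2 scale (standard error 0.75, adjusted p = 0.0342 from limma), a call that was lost without male 1 (0.0961) and without either female or either juvenile (0.0834 to 0.173). The other 9 of the 12 abundant transcripts did not pass in this comparison, among them all 6 higher in male 2.

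Against the females, 104 of the 119 were called in limma, 41 higher and 63 lower in juveniles, while 99.1% of all transcripts tested were called, 43% higher and 56.1% lower, in a table that appears to have been selected on this difference. The median of ratios estimated anew raised the juveniles over the females by 0.67 on the log2 scale. With it 87 of the 119 were called, 44 higher and 43 lower, against 85.7% of all transcripts. The count was 34 (against 85.7% of all transcripts) without female 1, 29 (81.5%) without female 2, 45 (87.0%) without juvenile 2 and 43 (83.1%) without juvenile 3.

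The 119 transcripts came from 119 loci, but 15 of them lay within 10 locus numbers of another, which is 12.6% against 6.24% of the other background transcripts near one of the 119. Within 1 number of another were 5 (4.2%) against 0.85%. Their genome positions were not used here, because the table holds none. They formed 6 runs, and in 5 of these all chosen transcripts were higher in the same male. The longest run held MSTRG.18283.1, MSTRG.18289.1, MSTRG.18291.1 and MSTRG.18294.1, all higher in male 2.

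MSTRG.18291.1 had 50.7 normalised counts in male 1 and 1965 in male 2, 3475 and 3315 in females 1 and 2, and 22.2 and 32.4 in juveniles 2 and 3. MSTRG.18294.1 had 12.5 and 378 in males 1 and 2, 355 and 317 in females 1 and 2, and 41.3 and 33.3 in juveniles 2 and 3. In both, as in MSTRG.18289.1, male 2 and the females were high and male 1 and the juveniles were low. Transcripts of the table between them that were not chosen showed the same gap. MSTRG.18287.1 had 0.889 in male 1 and 43.2 in male 2, MSTRG.18290.1 had 5.34 and 103, and MSTRG.18293.1 had 2.67 and 165. These 3 were outside the limit on the sexes, since their females had between 258 and 613 normalised counts and more than 4 times the male mean. Toward the start of the run the gap was smaller, with 251 and 434 for MSTRG.18286.1 and 558 and 2397 for MSTRG.18283.1. In MSTRG.18283.1 the females also differed, with 219 in female 1 and 1691 in female 2.

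**Figure D5:**
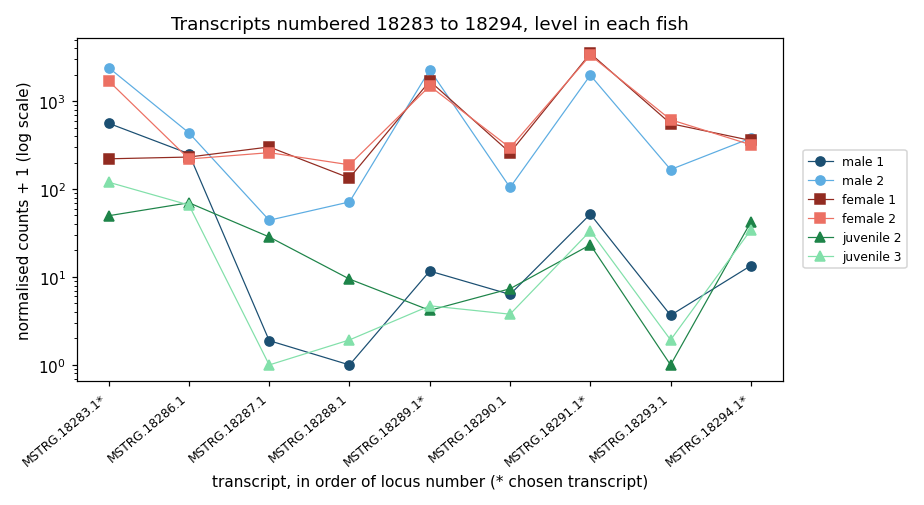
Normalised counts plus 1 (vertical, log scale) in each fish for the 9 transcripts of the table from MSTRG.18283.1 to MSTRG.18294.1, in order of locus number, with the 4 chosen transcripts marked by an asterisk. From MSTRG.18287.1 on, male 1 (dark blue circles) and the juveniles (triangles) lie below male 2 (light blue circles) and the females (squares). In MSTRG.18287.1 juvenile 2, with 27.5 normalised counts, lies well above male 1, with 0.889. Lines only join the values of 1 fish.

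A similar order was found in MSTRG.32340.1 and MSTRG.32343.1. MSTRG.32340.1 had 4.45 normalised counts in male 1 and 183 in male 2, 282 and 390.4 in the females and 0 in both juveniles. MSTRG.32341.1, between them and outside the limit on the sexes, had 2.67 in male 1, 83.9 in male 2 and 264 and 404 in the females.

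The run of MSTRG.19331.1, MSTRG.19332.2 and MSTRG.19333.1 was higher in male 1. MSTRG.19333.1 had 2811 normalised counts in male 1 and 482 in male 2, 398 and 723 in females 1 and 2, and 1.06 and 8.33 in juveniles 2 and 3. MSTRG.19332.2 had 669.7 and 107 in males 1 and 2, 113 and 141 in females 1 and 2, and 1.06 and 0 in juveniles 2 and 3. In both, male 2 was at the level of the females and the juveniles were under 10 normalised counts. MSTRG.19331.1 differed from its neighbours in the juveniles, which had 1904 and 3094, while its males had 1609 and 300.5 and its females 561 and 200.1. The pair MSTRG.14603.1 and MSTRG.14610.1 was higher in male 2, with ratios of 4.54 and 5.42, but 4 other background transcripts numbered between them had males no further apart than MSTRG.14607.1, at a log2 ratio of 1.19. In the pair MSTRG.1025.1 and MSTRG.1029.1 the males had opposite orders, with 2153 and 254 in males 1 and 2 for MSTRG.1025.1 and 253 and 1654 for MSTRG.1029.1. Neighbouring copies of a gene can share reads, and how reads with several matches were counted is not given in the sources used here. Whether these runs hold such copies was not tested, and their values may be less certain than those of single loci. Without the 15 transcripts of the runs, male 1 was higher in 69.2% of the remaining 104, and the females were over 4-fold apart in 17.3%.

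Of the 119, 6 came from loci with further transcripts in the table. At locus 18127 the transcripts went in opposite directions, with 102 in male 1 against 937 in male 2 for MSTRG.18127.1, and 16765 against 7748 for the more abundant MSTRG.18127.3. At locus 23916, MSTRG.23916.1 was higher in male 1, as described above, while MSTRG.23916.5 had 2713 in male 1 and 3619.9 in male 2. MSTRG.23916.11 followed MSTRG.23916.1, with 23.1 and 3.20 in the males. At locus 12869 the further transcript MSTRG.12869.1 had 6.23 in male 1, 4.0 in male 2 and 8902 and 8606 in the juveniles, and was low in the adults too. At locus 3379, MSTRG.3379.3 had 6432 and 997 in the males, MSTRG.3379.12 had 135 and 66.3, and MSTRG.3379.14 had 97.8 and 181, so that the gap of the first was not shared by the last. At locus 10687, MSTRG.10687.3 had 269 in male 1 and 58.3 in male 2 and MSTRG.10687.4 had 29.4 and 7.99. Transcripts of 1 locus can share exons, so their counts are not independent.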

How the data were processed

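RNA from 6 whole zebrafish, which were 2 adult males, 2 adult females and 2 juveniles, was sequenced, aligned to GRCz11 with HISAT2 2.1.0, assembled with StringTie 1.3.4 and counted with featureCounts 1.6.3, as the submitters' processing notes list. The deposited signal values are counts that the authors divided by DESeq2 (2.11.40.2) size factors. The smallest value above 0 of each fish was taken as 1 read. Divided by it, 100% of the values were whole reads within 0.01, and the recovered reads rest on this assumption. The authors' log2 fold changes, p-values, Wald score and selection mark were not used, nor was their base mean. The sequences and gene names of the transcripts were not used here. The juvenile columns are numbered 2 and 3 and were assigned to their group only.

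The 119 transcripts and all tests were chosen with earlier results of these data known. Named were the 6 most abundant transcripts and the 4 largest ratios in each direction, the 3 largest ratios between females and between juveniles, the 3 with the most even females and juveniles, and those at the limits. Others were chosen after their values were seen. Groups were compared with limma 3.58.1 (R 4.3.3) on log2 of the value plus 1, over all 13748 transcripts with at least 10 normalised counts in 2 fish, which left 3 residual degrees of freedom, and p-values were adjusted by Benjamini-Hochberg over all of them. The labels name separate fish, so p-values measure the spread between these fish. For the 119 that spread holds the gap between the males on which they were chosen, so their standard errors and p-values carry this choice. On recovered reads, edgeR 4.0.16 called 4565 and DESeq2 1.42.0 called 5434 transcripts for juveniles against males. Intervals of ratios between the males are exact and cover counting error only, with no allowance for the choice of transcripts on the same counts. Alternatives were other size factors, pseudocounts, filters, limits and tools, each fish left out, a replicate block, and runs of neighbouring loci left out.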

Additional observations from a re-analysis of the deposited data

How the results depend on the processing

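With a minimum mean of 30 or 300 in place of 100 the limits gave 196 or 60 transcripts, with 3-fold or 8-fold between the males 212 or 45, and with the female mean within 2-fold of the male mean 62. Which transcripts were chosen also changed with the size factors and with the fish. Of the 119, 102 stayed with re-estimated median of ratios, 103 with TMM and 83 with upper-quartile scaling. Without female 1 the limits kept 100 of them, and without female 2 they kept 90. Without juvenile 2 or juvenile 3 they kept 112 or 114. Females over 4-fold apart were 10% at a minimum mean of 300 and 10.8% at 3-fold between the males, and juveniles over 4-fold apart were 0.98% with 10 added. The share higher in male 1 kept its direction under every alternative run. For juveniles against males DESeq2 called 88 and the fit of only the compared groups 16, and leaving out 1 fish gave 7 to 74. For males against females DESeq2 called 10, re-estimated median of ratios 6, TMM 6 and the fit of only the compared groups 0 (2 at an unadjusted p under 0.05), and leaving out 1 fish gave 0 to 44. For juveniles against females leaving out 1 fish gave 29 to 115. The cause of these changes was not tested.

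A replicate block over the adults called 5 of the 119 (4.2%) for males against females, against 48.5% of all transcripts tested. The numbers of the adults are shared as numbers only, and the ratios of the males and of the females had a Pearson r of -0.04 over 9528 transcripts. Groups of 2 fish limit every comparison, and under 10 reads in the lower male limit 12 of the ratios. Leaving out neighbouring loci was chosen after seeing the data.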
